A study of Mus musculus with 165 samples.

Results

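The genes described here are the 5 immunoglobulin constant region genes Igkc, Ighm, Igha, Ighg2c and Ighg2b, the antibody assembly genes Jchain and Mzb1, and the B cell surface genes Cd79a, Cd79b and Ms4a1, in the livers and brains of ageing mice. They were chosen by symbol, and each of the 10 had 1 row in the liver table and 1 in the brain table, out of 55471 genes in each. In the liver 5 of them, mostly constant genes, were higher than at 3 months from 9 months of age on, and all 10 were higher at 24 and 28 months. In the brain at most 2 of the 8 that could be tested were higher at any age in the edgeR fit of all brains, and up to 4 with a single brain left out or under voom. All animals were male mice of the inbred strain C57BL/6J/Ukj, kept only for ageing, with no genetic change or treatment named. The livers numbered 16 at 3 months, 16 at 9, 16 at 15, 17 at 24 and 18 at 28 months, and the brains 15, 16, 16, 17 and 18. The same mouse code stood on a liver and a brain for 82 mice, and every age was present in each of 3 library preparations.

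B cells carry an antibody on their surface as a receptor. Its heavy and light chains bind antigen, and the partner proteins CD79A and CD79B pass the signal into the cell. On activation a B cell can switch the heavy chain constant region it uses from mu to gamma, alpha or epsilon, and can become a plasma cell, which secretes antibody and holds very large amounts of immunoglobulin transcript while turning down most B cell surface genes. The liver is not a main site of antibody production, although B cells pass through its vessels and can settle in its tissue, and the brain holds few B lineage cells outside its membranes and borders.

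In units of 1000000 counts, library totals ran from 5.82 to 57.5 over the livers (median 32.9) and from 11.5 to 73.4 over the brains (median 37.6). The tissue labels fitted the leading markers: Alb, the main plasma protein of hepatocytes, ran from 14000 to 101000 counts per 1000000 counts of the library (CPM) in the livers and from 0 to 18.5 in the brains, while Snap25, a synaptic protein, ran from 966 to 2770 CPM in the brains and from 0 to 40.4 in the livers. The lowest liver Alb was that of 28 month replicate 14, with the next at 35100 CPM, and this liver also had the highest summed level of neural markers of all livers, 72.7 CPM. The highest brain Alb was that of 28 month replicate 5, with the next at 0.898 CPM. A filter on low counts left 15579 genes in the liver and 18711 in the brain. All 10 members passed it in the liver and 8 in the brain, where Mzb1 and Ms4a1 did not. The 2 libraries least like the rest were 24 month replicate 13 and 28 month replicate 9 in the liver, with median correlations of 0.9148 and 0.9216 with the other livers, and 28 month replicate 15 and 24 month replicate 13 in the brain, at 0.852 and 0.9411. Without the 2 livers the members called at 15 against 3 months were 6 and their median log2 change at 24 against 3 months was 2.31 in place of 3.26, and without the 2 brains the members called at 24 against 3 months were 3.

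The reads behind these genes can be told apart as far as the gene models go. On GRCm38 (GENCODE M21 gene models), Igkc is a single constant exon at chr6:70726435-70726966 on the plus strand. The heavy chain constant genes lie in a row on the minus strand of chromosome 12, with Ighm at chr12:113418558-113422730, Ighg2b at chr12:113302965-113307933, Ighg2c at chr12:113285325-113288932 and Igha at chr12:113254830-113260236. Jchain is at chr5:88519809-88527891 on the minus strand, Cd79a at chr7:24897381-24902197 on the plus strand, Cd79b at chr11:106311341-106314762 on the minus strand and Ms4a1 at chr19:11249675-11266241 on the minus strand. No 100-base window of the exons of Igkc, Ighm, Igha, Ighg2c, Ighg2b, Jchain, Cd79b or Ms4a1 occurred in the exons of another gene. The shares were 1.77% of windows for Cd79a and 49.4% for Mzb1, so the Mzb1 values are the least certain. Ighg2b and Ighg2c, which encode the constant regions of IgG2b and IgG2c, are the closest pair: their longest identical exonic run is 78 bases, shorter than a read of 100 bases. The stretch around that run is printed to show how few bases separate these transcripts there, 5′ to 3′ on the minus strand from chr12:113306849-113306966 for Ighg2b and chr12:113287849-113287966 for Ighg2c, with the 4 bases that differ in capitals:
Ighg2b: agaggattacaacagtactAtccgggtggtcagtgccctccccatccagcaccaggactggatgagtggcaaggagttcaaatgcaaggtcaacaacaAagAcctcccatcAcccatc
Ighg2c: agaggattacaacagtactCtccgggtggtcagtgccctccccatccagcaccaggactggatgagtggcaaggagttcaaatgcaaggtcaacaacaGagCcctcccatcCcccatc

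Igkc encodes the constant region of the kappa light chain, the light chain of most mouse antibodies. In the liver its level ran from 6.14 to 28.6 CPM at 3 months with a median of 10.4, from 12.7 to 203 at 9 months with a median of 30.8, and from 33.5 to 288 at 15 months with a median of 58.4. At 24 months the range was 40.4 to 773 and the median 83.6, and at 28 months 24.6 to 558 and 108. Every liver of 15 and 24 months and 17 of the 18 of 28 months lay above the highest 3 month liver, as did 9 of the 16 of 9 months. The median at 28 months was 10.4 times that at 3 months. In the edgeR fit over all livers the log2 fold change of Igkc against 3 months was 1.85 ± 0.38 (SE; adjusted p = 0.00101) at 9 months and 3.53 ± 0.40 (adjusted p = 5.58e-12) at 28 months. These are bulk samples, in which more cells of a type and more RNA per cell cannot be told apart.

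**Figure D1:**
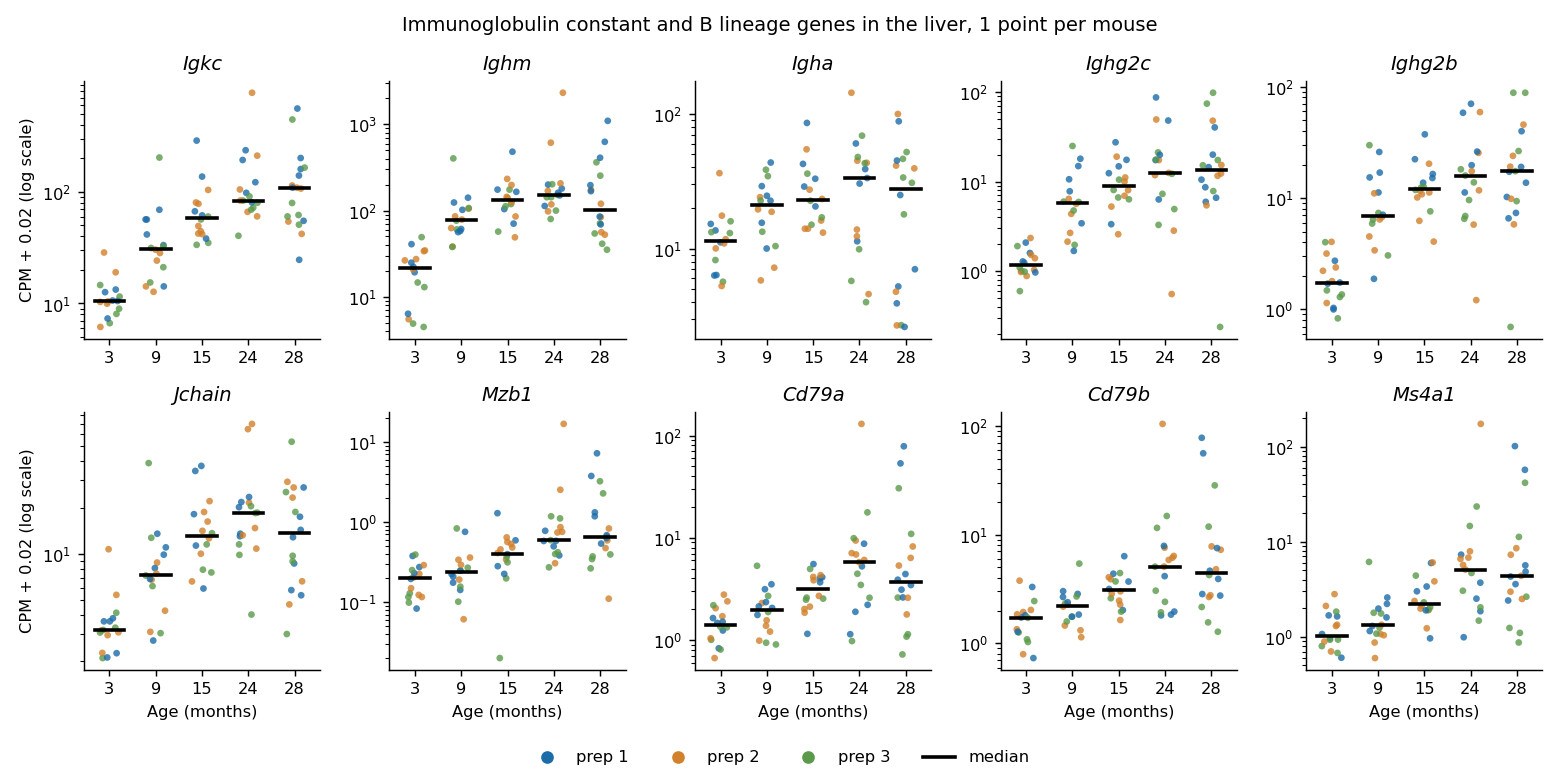
Level of each of the 10 genes in each liver (CPM + 0.02, log axis) against age in months, with 1 point per mouse coloured by library preparation and a black bar at the median of each age. The Igkc points of 15 and 24 months all lie above the highest 3 month liver at 28.6 CPM, and for Cd79a, Cd79b and Ms4a1 the medians go from 1.39, 1.71 and 0.997 CPM at 3 months to 5.76, 5.06 and 5.08 at 24 months, where 1 liver reaches 130, 104 and 173 CPM.

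Ighm encodes the mu heavy chain of IgM, the first heavy chain a B cell makes. Its liver level was 4.44 to 49.1 CPM at 3 months (median 21.5), 37.8 to 403 at 9 months (77.4), 48.9 to 482 at 15 months (133), 79.8 to 2330 at 24 months (152) and 35.1 to 1100 at 28 months (102). All but a few older livers lay above the whole 3 month range: 14 of 16 at 9 months, 15 of 16 at 15, 17 of 17 at 24 and 16 of 18 at 28. Of the 10 genes Ighm had the most livers beyond that range at 9 months. Its log2 fold change against 3 months was 2.29 ± 0.44 (adjusted p = 0.000421) at 9 months and 3.29 ± 0.46 (adjusted p = 3.77e-09) at 28 months. The highest values came from single animals, 24 month replicate 13 at 2330 CPM and 28 month replicate 2 at 1100 CPM.

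The gamma genes Ighg2c and Ighg2b, whose products are switched IgG heavy chains, had the largest changes of the 10 members at 28 months, with log2 fold changes of 4.13 ± 0.49 (adjusted p = 3.15e-11) and 3.63 ± 0.44 (adjusted p = 4.79e-11). Ighg2c ran from 0.576 to 2.32 CPM at 3 months (median 1.15), 1.66 to 25 at 9 months (5.77), 2.56 to 27.5 at 15 months (9.01), 0.533 to 87.4 at 24 months (12.5) and 0.217 to 98.6 at 28 months (13.4). For Ighg2b the ranges were 0.81 to 4.02 CPM at 3 months (median 1.70), 1.86 to 29.8 at 9 months (6.89), 4.04 to 37.3 at 15 months (12.1), 1.19 to 70.2 at 24 months (15.9) and 0.675 to 88.2 at 28 months (17.3). Both genes exceeded the highest 3 month liver in 13, 16, 16 and 17 livers of 9, 15, 24 and 28 months. The livers that did not at the 2 oldest ages were 24 month replicate 13 and 28 month replicate 3, which had the lowest Ighg2c of their ages, 0.533 and 0.217 CPM, below the whole 3 month range. In those 2 livers Ighm was at 2330 and 254 CPM.

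Igha encodes the alpha heavy chain of IgA, the antibody of mucosal surfaces. Its liver level was 5.25 to 36.2 CPM at 3 months (median 11.4), 5.78 to 43.4 at 9 months (21.1), 13.1 to 85.4 at 15 months (23.0), 3.98 to 143 at 24 months (33.3) and 2.6 to 99.5 at 28 months (27.8). The highest 3 month liver, replicate 12 at 36.2 CPM, stood apart from the next at 17.5, and 2, 3, 8 and 7 livers of the 4 older ages lay above it. At each older age some livers lay within the 3 month range, also without replicate 12. Below the lowest 3 month liver lay 2 of the 17 livers of 24 months and 6 of the 18 of 28 months. At 28 months the values were spread widely: 7 livers lay between 2.6 and 7.0 CPM and the other 11 between 17.9 and 99.5. The log2 fold change of Igha was 0.77 at 9 months (adjusted p = 0.293), 1.2 ± 0.41 at 15 months (adjusted p = 0.0588, and 0.0248 without 3 month replicate 12), 1.53 at 24 months (adjusted p = 0.0013) and 1.29 ± 0.40 at 28 months (adjusted p = 0.00442). With limma's voom and quality weights the 28 month change of Igha was 0.46 and no longer passed (adjusted p = 0.343), and it passed in none of the 3 preparations taken alone, at 1.24, 1.29 and 1.44.

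Jchain encodes the joining chain that links IgM and IgA molecules into polymers for secretion. In the liver it ran from 2.08 to 10.7 CPM at 3 months (median 3.17), 2.71 to 38.9 at 9 months (7.31), 5.93 to 37.3 at 15 months (13.1), 4.01 to 70 at 24 months (18.4) and 2.99 to 53.6 at 28 months (13.5). Its log2 fold change was 1.41 ± 0.34 at 9 months (adjusted p = 0.00763) and 2.21 ± 0.34 at 28 months (adjusted p = 4.67e-08), with 10 of 18 livers of 28 months above the 3 month range. Mzb1, a chaperone of the endoplasmic reticulum that helps antibody assembly, was near the detection limit, at a median of 0.179 CPM at 3 months, 0.215 at 9, 0.384 at 15, 0.574 at 24 and 0.628 at 28 months. Its highest values were 16.8 CPM in 24 month replicate 13 and 7.2 CPM in 28 month replicate 2, the livers that were also highest for Ighm. The Mzb1 change passed at 24 months (log2 3.03, and 2.00 without 24 month replicate 13) and at 28 months (2.88 ± 0.50, adjusted p = 1.04e-06).

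CD79A and CD79B form the signalling part of the B cell receptor, and Ms4a1 encodes CD20, a surface protein of mature B cells. Cd79a in the liver was 0.646 to 2.76 CPM at 3 months (median 1.39), 0.885 to 5.3 at 9 months (1.95), 1.13 to 5.51 at 15 months (3.16), 0.957 to 130 at 24 months (5.76) and 0.703 to 78.5 at 28 months (3.65). Cd79b had medians of 1.71, 2.21, 3.07, 5.06 and 4.43 CPM over the same ages, with highest values of 3.75, 5.39, 6.31, 104 and 77.5. Ms4a1 had medians of 0.997, 1.3, 2.2, 5.08 and 4.32 CPM and highest values of 2.79, 6.11, 6.03, 173 and 101. Above the highest 3 month liver lay 12, 11 and 12 of the 17 livers of 24 months for Cd79a, Cd79b and Ms4a1, and 11, 11 and 12 of the 18 of 28 months. A few livers lay far above the rest of their age: the highest at 24 months was replicate 13 and the highest at 28 months was replicate 4 for each gene. Leaving out that 24 month liver took the mean of Ms4a1 at 24 months from 15.9 ± 40.8 (SD, n = 17) to 6.09 CPM.

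At 28 months Cd79a was 3.01 ± 0.54 higher than at 3 months on the log2 scale (adjusted p = 1.42e-06), Cd79b 2.83 ± 0.49 (adjusted p = 7.35e-07) and Ms4a1 3.56 ± 0.60 (adjusted p = 4.01e-07). The ratios of the medians were 2.63 for Cd79a, 2.59 for Cd79b and 4.33 for Ms4a1 at 28 months and 4.15, 2.96 and 5.1 at 24 months, below what the fitted changes would give. With quality weights in voom, which give less weight to libraries far from the rest, the log2 changes were 1.58 for Cd79a, 1.69 for Cd79b and 2.05 for Ms4a1 and all 3 still passed.

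Counted over the members, 5 of 10 rose by 9 months in the liver at an adjusted p under 0.05: Igkc, Ighm, Ighg2c, Ighg2b and Jchain. Over all genes tested 1.53% rose in that comparison. One liver, 9 month replicate 9, stood above its age, with 203 CPM of Igkc where the next held 69.1. Without it the log2 fold change was 1.33 for Igkc (adjusted p = 0.0147) and 1.04 for Jchain (adjusted p = 0.0476). The count stayed at 5 whichever single liver was left out. Igha, Mzb1, Cd79a, Cd79b and Ms4a1 did not pass, although the intervals do not exclude a change: the log2 fold change of Cd79a was 0.55 with a 95% confidence interval of -0.49 to 1.59, and that of Ms4a1 was 0.56 with -0.60 to 1.72. The same 5 genes passed at 15 months, with log2 fold changes of 2.62 for Igkc, 2.77 for Ighm, 3.04 for Ighg2c, 2.77 for Ighg2b and 2.1 for Jchain, against 3.06% of all genes that rose. At that age 9 of the 10 had an unadjusted p under 0.05, and 9 passed with only the livers of 3 and 15 months in the fit. All 10 passed at 24 months (25.0% of all genes) and at 28 months (31.9%), and at both ages all 10 passed whichever single liver was left out. Whether the constant genes changed earlier than Cd79a, Cd79b and Ms4a1 was not tested as a difference of its own. These 4 comparisons share the 3 month livers.

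**Figure D2:**
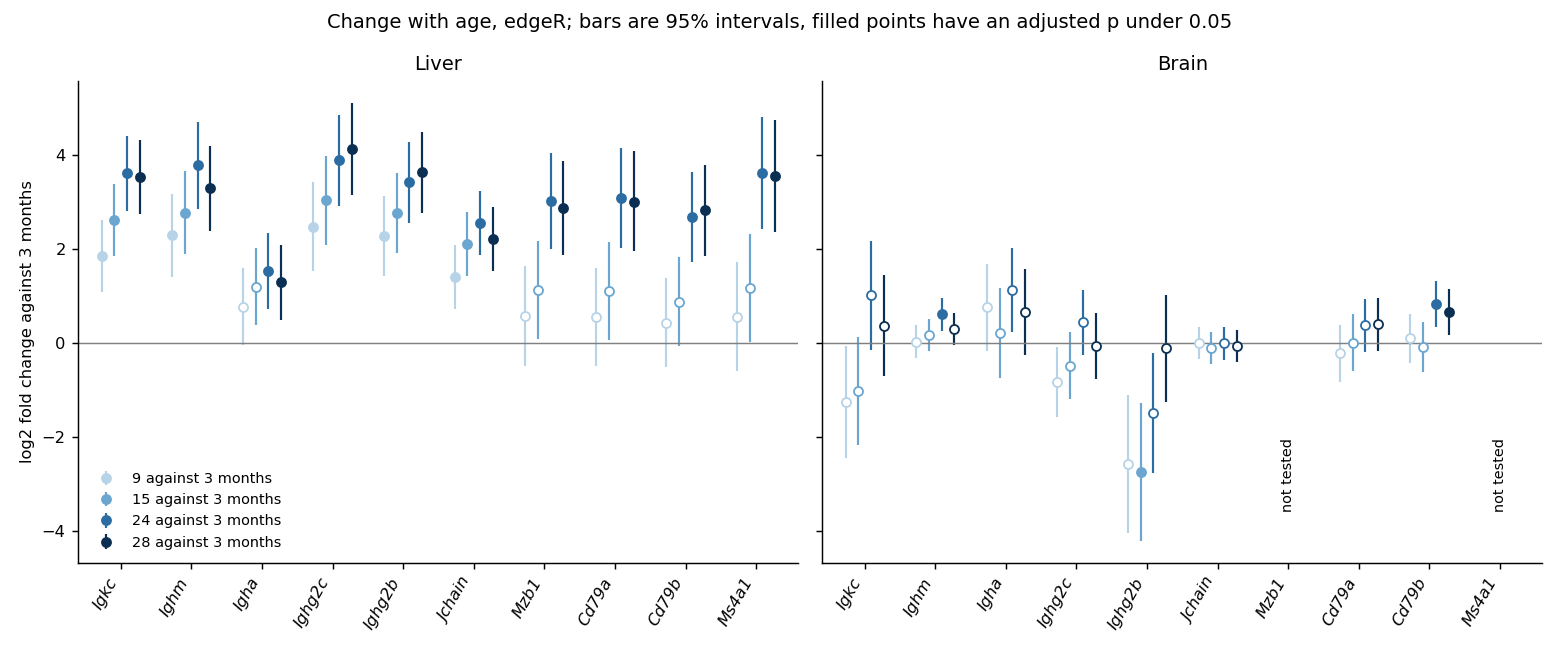
Log2 fold change against 3 months with its 95% confidence interval for each member, at 4 ages in the liver (left) and the brain (right), with filled points where the adjusted p was under 0.05 in edgeR. In the liver 5 genes have filled points from 9 months and all 10 at 24 and 28 months, and in the brain the filled points are Ighm and Cd79b at 24 months, Cd79b at 28 months and Ighg2b, below 0, at 15 months.

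Between neighbouring ages few steps passed. None of the 10 members differed between 9 and 15 months in the edgeR test, where 0.0514% of all genes passed; DESeq2 and voom also called 0, and 2 members, Igkc at a log2 fold change of 0.77 and Jchain at 0.69, were under 0.05 before adjustment. From 15 to 24 months 5 members rose against 21.6% of all genes: Igkc by 0.99 ± 0.36 (adjusted p = 0.0248), Mzb1 by 1.9 (0.00107), Cd79a by 1.99 ± 0.51 (0.00146), Cd79b by 1.81 (0.0016) and Ms4a1 by 2.45 ± 0.56 (0.000453). This step rested on 1 liver. Without 24 month replicate 13 none of them passed, with log2 fold changes of 0.47 for Igkc (adjusted p = 0.267), 0.77 for Mzb1 (0.11), 0.88 for Cd79a (0.099), 0.77 for Cd79b (0.111) and 1.08 for Ms4a1 (0.0591), and voom called 0. In the step from 24 to 28 months no member passed in the edgeR, DESeq2 or voom fit (15.3% of all genes passed in edgeR), and 0 members were under 0.05 before adjustment; without that same liver Cd79b passed, at 1.02 (adjusted p = 0.0386). The test over all 5 ages called all 10 members, against 71.5% of all genes.

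The livers of 28 months differed more from each other than those of 3 months. The standard deviation of log2 level between livers, on log2(CPM + 0.1), was 0.48 for Ighg2c at 3 months and 1.80 at 28 months, 0.71 and 1.83 for Igha, 0.56 and 1.15 for Igkc, 0.60 and 1.87 for Ms4a1 and 0.56 and 1.83 for Cd79a. For each of the 10 genes it was larger at 28 than at 3 months, a description that was not tested. Ighm changed least in this respect, from 1.13 to 1.43. The step was not even over the ages: Ighm was at 0.82 at 9 months and 0.81 at 15, and Cd79b at 0.63, 0.53 and 0.50 at 3, 9 and 15 months and 1.64 at 28.

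A few livers stood far above their age group, and they did so with different sets of genes. In 24 month replicate 13 Ighm was at 2330 CPM, Ms4a1 at 173 and Cd79a at 130, while Igha was at 4.57 and Ighg2b at 1.19. The same liver had 73.8 CPM of Pax5, the factor that holds cells to the B lineage, against a 24 month median of 1.95 CPM. It also had the highest summed T cell level of all livers, 135 CPM against a 24 month median of 16.2, and the part of other blood cells in its values was not tested. Replicate 4 of 28 months had 628 CPM of Ighm, 78.5 of Cd79a and 101 of Ms4a1 with 5.92 CPM of Ighg2c. By contrast 28 month replicate 6 had 98.6 CPM of Ighg2c and 88.2 of Ighg2b with 10.9 of Cd79a, and 28 month replicate 12 had 74.5 and 88.2 CPM of the 2 gamma genes with 1.06 of Cd79a and 0.852 of Ms4a1. So the livers highest for the gamma genes were not the livers highest for the receptor genes at 28 months.

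The counts over the heavy chain constant genes Ighm, Ighd, Igha, Ighg1, Ighg2b, Ighg2c, Ighg3 and Ighe give the makeup of heavy chain transcripts in each liver. Ighm held a median of 52.8% of them at 3 months (20.5 to 77.1), 69.7% at 9, 74.2% at 15, 69.2% at 24 and 63.2% at 28 months (13.8 to 95.6). The mean share was 49.8% ± 18.5 (SD, n = 16) at 3 months and 60.6% ± 26.7 (SD, n = 18) at 28 months, a difference of 10.7 points that did not exceed the spread (2-sided permutation test, 100000 permutations, p = 0.185). It did not pass within a preparation either, at 20.2, 4.06 and 5.15 points (p = 0.146, 0.762 and 0.745). The Igha share had medians of 29.7%, 16.3%, 13.1%, 11.4% and 9.38% from 3 to 28 months, while Ighg2c went from 3.59% to 7.22% and Ighg2b from 5.37% to 8.4%; these shares sum to a whole and were not tested.

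**Figure D3:**
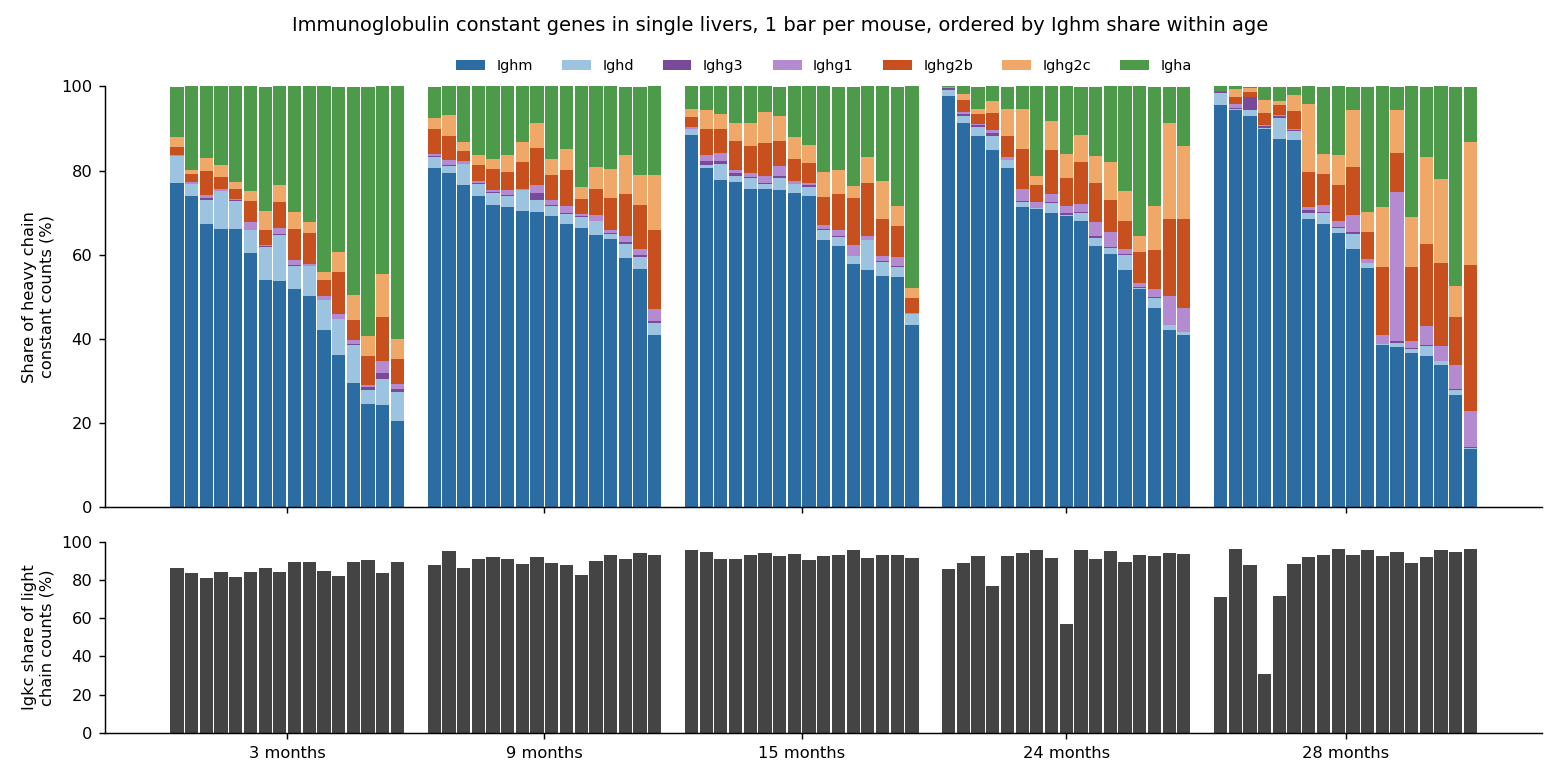
Top, share of the heavy chain constant counts held by each gene in each liver (percent, stacked), 1 bar per mouse, ordered by Ighm share within age; bottom, share of the light chain constant counts held by Igkc. The Ighm share spans 20.5% to 77.1% over the 3 month livers and 13.8% to 95.6% over the 28 month livers, and the lowest Igkc bar, 30.6%, is a 28 month liver.

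Single old livers sat at the ends of these shares. Ighm made up 97.8% of the heavy chain counts in 24 month replicate 13 and 93.0%, 95.6% and 87.4% in 28 month replicates 2, 3 and 4, the livers with the highest B cell receptor genes of their ages. It also made up 94.4% in 28 month replicate 7, where Cd79a was 3.87 CPM, close to the median of its age. In 28 month replicate 6 the IgG1 gene Ighg1 held 35.4% of the heavy chain counts at 338 CPM, where the median of that age was 2.52 CPM. Igkc held a median of 84.6% of the light chain constant counts at 3 months and 92.7% at 28 months, but 30.6% in 28 month replicate 13, where the lambda gene Iglc1 was at 52.5 CPM, and 57.2% in 24 month replicate 8, where Iglc2 was at 142 CPM. The liver with the lowest Igkc of 28 months, 24.6 CPM, was thus one with a high lambda level.

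Within an age and a preparation some members varied together over the 83 livers, as described by Pearson correlations of log2 CPM after removing the means of age and preparation; the livers share the scaling of their libraries. Cd79a went with Cd79b (r = 0.96, rho 0.92) and with Ms4a1 (r = 0.95, rho 0.9). Ighg2c went with Ighg2b (r = 0.93, rho 0.87), Igkc with Jchain (r = 0.84, rho 0.84), and Igha with Ighg2b (0.66) and Jchain (0.64). Ighm was at 0.71 with Cd79a and 0.64 with Igkc, and Mzb1 at 0.67 with Cd79a and 0.66 with Ighm. Among the pairs with r below 0 were Ighm with Ighg2c (r = -0.18, rho -0.11), Ighg2c with Cd79b (r = -0.32, rho -0.05) and Igha with Ms4a1 (r = -0.26, rho -0.07), all weak by rank. Without the 2 livers least like the rest Ighg2c with Cd79b was at -0.19 and Ighm with Ighg2c at -0.04.

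The genes whose liver pattern was most like that of Igkc, by the same measure over 83 livers and leaving out the members and the variable, diversity and joining segments, were Cpxm1 (r = 0.73), Tnfsf8 (0.66), Pou2af1 (0.66), Irf4 (0.65) and Cxcr4 (0.65). Among those most like Cd79a were Pax5, Blk, Spib and Fcrla (0.95 each). Without the 2 livers least like the rest the Igkc values were 0.73, 0.63, 0.59, 0.57 and 0.58.

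Levels per kilobase of exon are a rough way to compare genes, since the length is that of all annotated exons of a gene together. It was 2678 bases for Ighg2b and 1326 for Ighg2c, and in CPM Ighg2b was the higher of the 2 at 28 months (17.3 against 13.4). Per kilobase Igkc was the highest of the 10 in the liver at every age by its median. It was at 19.5 CPM per kb at 3 months and 203 at 28 months. Ighm followed at 11.4 and 54.1, then Igha at 4.27 and 10.4 and Ighg2c at 0.867 and 10.1. Jchain was at 1.26 and 5.36 and Ighg2b at 0.635 and 6.46. Of the receptor genes Cd79b was at 1.19 and 3.1, Cd79a at 0.954 and 2.51 and Ms4a1 at 0.161 and 0.698, and Mzb1 was at 0.147 and 0.517. At 3 months Cd79b and Cd79a thus had higher medians than Ighg2c and Ighg2b, and at 28 months lower ones. At 28 months the ranges of neighbouring genes overlapped, also for the highest pair, with Igkc at 46.2 to 1050 and Ighm at 18.6 to 583 CPM per kb.

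Other genes of the B lineage were taken from fixed lists, chosen with earlier results of these data known. In the liver at 28 months 22 of 25 tested B cell genes were higher than at 3 months, against 31.9% of all genes, and 0 were lower, and the median of their log2 fold changes was 2.42 against 0.01 over all genes. The largest changes were those of Tnfrsf13c, the receptor for the survival factor BAFF, at 4.06 ± 0.69 and the kinase gene Blk at 4.04 ± 0.65. At 9 months 0 of these 25 passed in edgeR, where 1.53% of all genes were higher, 1 had an unadjusted p under 0.05, and the median was 0.35. All 6 tested constant genes outside the members rose by 28 months, with Ighg1 at 5.71 ± 0.82 and Ighg3 at 4.46 ± 0.78, from low 3 month medians of 0.25 and 0.0708 CPM. These means rest in large part on 1 liver each: at 28 months Ighg1 was at 338 CPM in replicate 6 and at most 21.7 in the others (median 2.52), and Ighg3 at 34.8 CPM in replicate 2 and at most 5.19 in the others (median 0.649). Without that liver the 28 month mean went from 23.1 to 4.59 CPM for Ighg1 and from 2.81 to 0.929 for Ighg3. At 9 months 0 of the 6 passed, against the same 1.53%, and 4 had an unadjusted p under 0.05. The same 22, 6 and 0 genes by count passed without the 2 livers least like the rest.

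The plasma cell list did not move one way. At 28 months 7 of its 17 tested genes were higher in the liver and 6 lower, against 31.9% and 30.0% of all genes, and the median of its log2 fold changes was 0.03. At 9, 15 and 24 months 0, 0 and 7 were higher, against 1.53%, 3.06% and 25.0% of all genes. Lower at these ages were 3, 1 and 1, counts for which no share over all genes is given here and which are not read further. By 28 months Tnfrsf13b, the receptor TACI, rose by 2.95 ± 0.48 and Irf4, a factor of plasma cell formation, by 2.72 ± 0.43. Bhlha15, a factor of secretory cells, and Creld2, a folding gene of the endoplasmic reticulum, changed by -1.83 ± 0.49 and -1.19 ± 0.29. Several genes of this list are expressed by liver cells themselves: Sdc1, a surface marker of plasma cells that hepatocytes also carry, had a median of 261 CPM at 3 months. Tnfrsf17, which encodes the plasma cell receptor BCMA, was at a median of 0.0131 CPM at 3 months and 0.0587 at 28 months.

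Genes that guide or sustain B cells were higher in old livers: 8 of 8 tested, out of 14 listed, passed at 28 months, against 31.9% of all genes, and the median of their log2 fold changes was 1.43. Cxcl13, the chemokine that draws B cells into follicles, rose by 3.97 ± 0.43, from a median of 4.41 CPM at 3 months to 69.6 at 28 months, and 17 of 18 livers lay above the 3 month range. Cxcr4, a homing receptor, rose by 2.56 ± 0.36. Among 9 genes that bind or carry antibody 6 of the 8 tested were higher and 1 lower, against 31.9% and 30.0% of all genes, with Fcgr4, an activating IgG receptor of myeloid cells, at 2.19 ± 0.28 and Fcgrt, the neonatal Fc receptor that recycles IgG, at -0.45 ± 0.06. Of 7 genes of B cell precursors only 2 could be tested, and both rose, Il7r by 2.27 and Dntt by 0.97.

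Markers of other blood cells moved in the same livers. At 28 months 9 of 10 T cell genes, 9 of 10 macrophage genes and 8 of 8 neutrophil genes were higher, against 31.9% of all genes, with medians of 1.83, 1.40 and 4.54. The summed T cell level ran from 5.22 to 39.9 CPM over the 3 month livers and from 12.5 to 65.7 over those of 28 months, the macrophage level from 446 to 1490 and from 686 to 5690, and the neutrophil level from 1.83 to 17.5 and from 5.74 to 783. The summed B cell level ran from 35.4 to 115 CPM at 3 months and from 54.1 to 870 at 28 months. All 4 of these highest 3 month sums were those of replicate 12, and the next highest were 10.5 CPM for T cells, 765 for macrophages, 7.2 for neutrophils and 63.9 for B cells. Without that liver the T cell sums of the 2 ages did not overlap, and the other 3 did. At 9 months 0 of the T cell, macrophage and neutrophil genes passed in edgeR, and 0 had an unadjusted p under 0.05. Over all genes 1.53% were higher at that age, so 0 in lists of this size is close to the share over all genes. The part of these cells in the members' changes was not tested.

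In the brain the 10 genes were low except Ighm, with medians of at most 1.77 CPM, and most age groups overlapped. Ighm had medians of 10.1 CPM at 3 months, 11.6 at 9, 13.5 at 15, 15.5 at 24 and 13.7 at 28 months, and held a median of 91.4% of the heavy chain constant counts at 3 months and 88.8% at 28 months. Igkc had medians of 0.362, 0.632, 0.693, 1.22 and 1.77 CPM. At 3 months 13 of the 15 brains lay at or below 1.25 CPM of Igkc, and the other 2 were replicate 15 at 15.3 and replicate 13 at 7.85. At 24 months replicate 9 reached 40.2 CPM of Igkc and 56.9 of Ighm. Per kilobase Ighm was the highest of the 10 in the brain at 3 months, at 5.36 CPM per kb against 0.68 for Igkc, the reverse of the order in the liver.

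**Figure D4:**
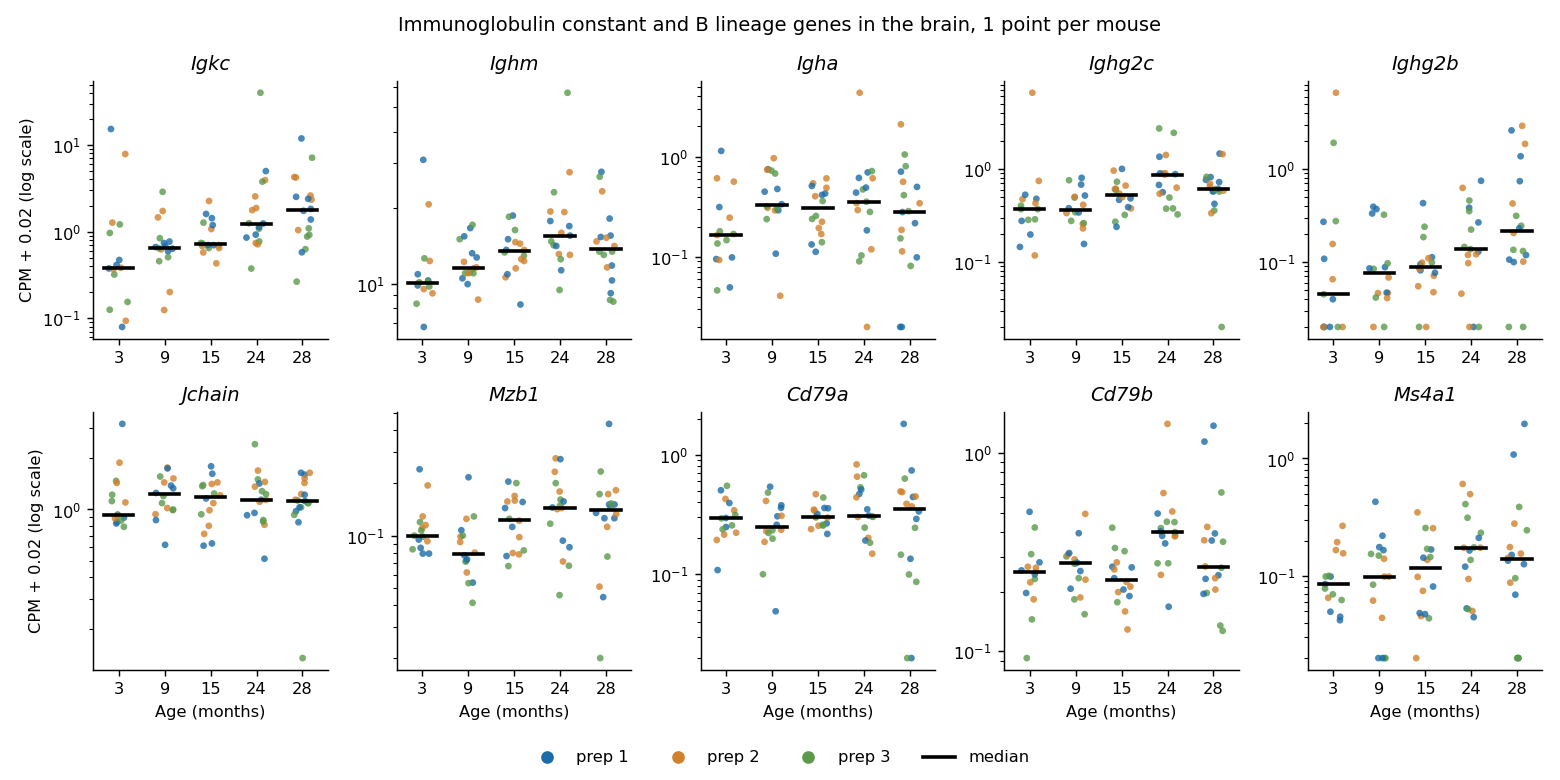
Level of each of the 10 genes in each brain (CPM + 0.02, log axis) against age in months, with 1 point per mouse coloured by library preparation and a black bar at the median of each age. The Ighm medians lie between 10.1 and 15.5 CPM, and for Igkc 3 month replicate 15 at 15.3 CPM and 24 month replicate 9 at 40.2 CPM stand far above the medians.

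At 28 months 1 of the 8 tested members was higher in the brain than at 3 months, against 16.3% of all genes: Cd79b, by 0.66 ± 0.25 (adjusted p = 0.0331). Its median went only from 0.231 to 0.246 CPM, and the call rested on a few brains: without 28 month replicate 2, at 1.35 CPM, the change was 0.46 (adjusted p = 0.129), and it was also lost without 28 month replicates 3 or 4, without 3 month replicates 7 or 16, under voom (0.0629) and with the replicate block (0.0517). The Igkc change was 0.37 ± 0.54 (adjusted p = 0.64), although its median was 4.89 times the 3 month one. It became 1.45 (adjusted p = 0.0392) without 3 month replicate 15, -0.01 without 28 month replicate 2 and 1.74 (adjusted p = 0.00373) under voom. In the same way Ighg2c went from -0.06 (adjusted p = 0.908) to 0.95 (0.00643) without 3 month replicate 13, which held 6.56 CPM where the other 3 month brains held at most 0.723. Whether Igkc and Ighg2c passed at 28 months thus turned on single 3 month brains. Ighm had 0.30 (adjusted p = 0.18, and 0.49 with 0.0185 without 3 month replicate 15), Igha 0.66 (0.283), Ighg2b -0.11 (0.901), Jchain -0.06 and Cd79a 0.40 (0.299).

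At 24 months 2 of 8 members were higher, against 6.19% of all genes: Ighm by 0.61 ± 0.17 (adjusted p = 0.0135) and Cd79b by 0.83 ± 0.24 (adjusted p = 0.018). Each was lost without 1 brain, Ighm without replicate 9 of 24 months (0.42, adjusted p = 0.0669) and Cd79b without replicate 13 of 24 months (0.67, adjusted p = 0.0508). Without 3 month replicate 15, 4 members passed, among them Igkc at 1.94 (adjusted p = 0.0151) and Igha at 1.60 (adjusted p = 0.0132). Ighg2c, whose median was 2.43 times that of 3 months, went from 0.44 (adjusted p = 0.47) to 1.46 (adjusted p = 6.82e-05) without 3 month replicate 13. At 15 months 1 member was lower, against 0.347% of all genes: Ighg2b by -2.74 ± 0.74 (adjusted p = 0.0447), a value that became -1.23 (adjusted p = 0.83) without 3 month replicate 13, the brain at 6.58 CPM where the median was 0.0249. The Ighg2b median itself was higher at 15 months, 0.0691 CPM, and the call was lost on leaving out any of 16 single brains.

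No member passed in the brain at 9 against 3 months (0.315% of all genes; 3 members had an unadjusted p under 0.05), at 15 against 9 months (0%; 0 members), at 24 against 15 months (0.732%; 5 members) or at 28 against 24 months (1.09%; 1 member) in edgeR. DESeq2 and voom also called 0, except that they called 2 and 1 members at 24 against 15 months. The test over all 5 ages called 5 of 8 members, Igkc, Ighm, Ighg2c, Ighg2b and Cd79b, against 20.6% of all genes, and 2 of them without 24 month replicate 9. The Ighg2c call (adjusted p = 0.0437) was lost on leaving out any of 24 single brains.

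Of the other B lineage genes in the brain, 6 of 15 tested B cell genes were higher at 28 months and 1 lower (Ralgps2, -0.19), against 16.3% and 12.0% of all genes, with a median of 0.34. Of 15 tested plasma cell genes 1 was higher and 4 were lower. Of 4 tested T cell genes 0 passed in edgeR and 1 had an unadjusted p under 0.05. Cd22, a B cell inhibitory receptor that microglia also express, rose by 1.67 ± 0.18, and Cd72, a receptor of B cells and some myeloid cells, by 1.37 ± 0.26. Among antibody receptors 5 of 7 rose, with Fcgr4 at 1.40, and 5 of 6 macrophage genes and 6 of 6 neutrophil genes rose, against the same 16.3%. Of 10 genes of meninges and choroid plexus 3 were lower, among them the collagens Col1a2 at -0.78 and Col1a1 at -0.65. Their summed level ran from 117 to 6460 CPM over the 3 month brains and from 114 to 5330 over those of 28 months. The choroid plexus gene Ttr was at 2530 CPM in 3 month replicate 15, the brain with the highest Igkc of that age, at 55.0 in 3 month replicate 13, the next highest, and at 122 in 24 month replicate 9, the highest of all brains. In other brains with much Ttr Igkc was mostly high for its age but not always. It was not high in 3 month replicate 4 (Ttr 1250 CPM), which held 14 light chain constant counts, 85.7% of them Igkc. Replicate 15 of that age held 714 light chain constant counts. In 3 month replicate 5, the brain with the most Ttr at 5910 CPM, Igkc was at 1.25 CPM, the third highest of that age, and in 15 month replicate 14, with 4330 CPM of Ttr, it was at 2.24, the highest of that age. Igkc was at 3.91 CPM in 24 month replicate 8 (Ttr 4050) and 4.25 in 28 month replicate 14 (Ttr 2800), each the third highest of its age, but at 1.07 in 28 month replicate 12 (Ttr 4980), below the median of 1.77. The part of choroid plexus in the brain values was not tested. The genes most like Igkc over 82 brains were Ifi27l2a (r = 0.66), H2-Eb1 (0.64), Cd74 (0.64), H2-Ab1 (0.58) and H2-Aa (0.55), an interferon-induced gene and 4 genes of antigen presentation on MHC class II.

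The change from 3 to 28 months differed between the tissues for 7 of the 8 members tested in both, against 49.2% of 14035 genes, in an edgeR fit of both tissues with a term for the difference. The liver change exceeded the brain change by 4.27 ± 0.61 for Ighg2c (adjusted p = 1.7e-09), 3.80 ± 0.69 for Ighg2b (1.41e-06), 3.24 ± 0.64 for Igkc (1.04e-05), 3.00 ± 0.46 for Ighm (2.02e-08), 2.62 ± 0.66 for Cd79a (0.000471), 2.30 ± 0.39 for Jchain (2.97e-07) and 2.17 ± 0.61 for Cd79b (0.00189), on the log2 scale. For Igha the difference was 0.69 ± 0.72 and did not pass (adjusted p = 0.439). The same 7 members passed without the 2 libraries of each tissue least like the rest and without either of the 3 month brains that stood apart. The difference of Igkc was 2.21 ± 0.65 (adjusted p = 0.00308) without 3 month replicate 15, and those of Ighg2c and Ighg2b were 3.22 ± 0.61 (4.48e-06) and 2.36 ± 0.74 (0.00533) without 3 month replicate 13. With the mouse as a block, since liver and brain come from the same mice, the differences were 1.86 ± 0.61 for Igkc (adjusted p = 0.0098), 2.99 ± 0.57 for Ighg2c (1.11e-05) and 2.36 ± 0.81 for Ighg2b (0.0131), and the same 7 members passed.

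For Igha and Cd79b the liver and brain levels of a mouse went together in part. Over 82 mice, after removing the means of age and preparation, the Pearson correlation of the liver and brain log2 CPM was 0.55 for Igha (rho 0.44; permutation p = 2e-05, adjusted over all genes 0.00369) and 0.67 for Cd79b (rho 0.46; permutation p = 1e-05, the smallest these permutations can give, adjusted 0.00213). Without the 2 mice farthest from the median in the liver they were 0.50 and 0.54. Within the 3 preparations Igha gave 0.42, 0.61 and 0.55 (p = 0.0817, 0.00583 and 0.0264) and Cd79b 0.72, 0.68 and 0.59. Over all genes 1.92% of 14035 passed in this test. The brains with the most Igha, 4.32 CPM in 24 month replicate 8 and 2.08 in 28 month replicate 14, belonged to the mice with the most Igha in the liver at those ages, at 143 and 99.5 CPM. Both brains were rich in Ttr, at 4050 and 2800 CPM where the medians of those ages were 62.1 and 79.0, and so was the brain with the most Igha at 3 months, replicate 15 at 2530. The liver of 28 month replicate 14 was also the one with the lowest Alb and the highest neural markers. The part of these in the Igha correlation was not tested. The mouse with the next highest liver Igha at 28 months, replicate 9 at 87.8 CPM, had 0.197 CPM in the brain, below the 28 month median of 0.263. Igkc had 0.12 (permutation p = 0.252, adjusted 0.689; 0.33, -0.02 and 0.09 within the preparations), Ighm 0.12, Ighg2c 0.08, Ighg2b 0.17, Jchain 0.17 and Cd79a 0.40 (adjusted 0.104), none of which passed.

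**Figure D5:**
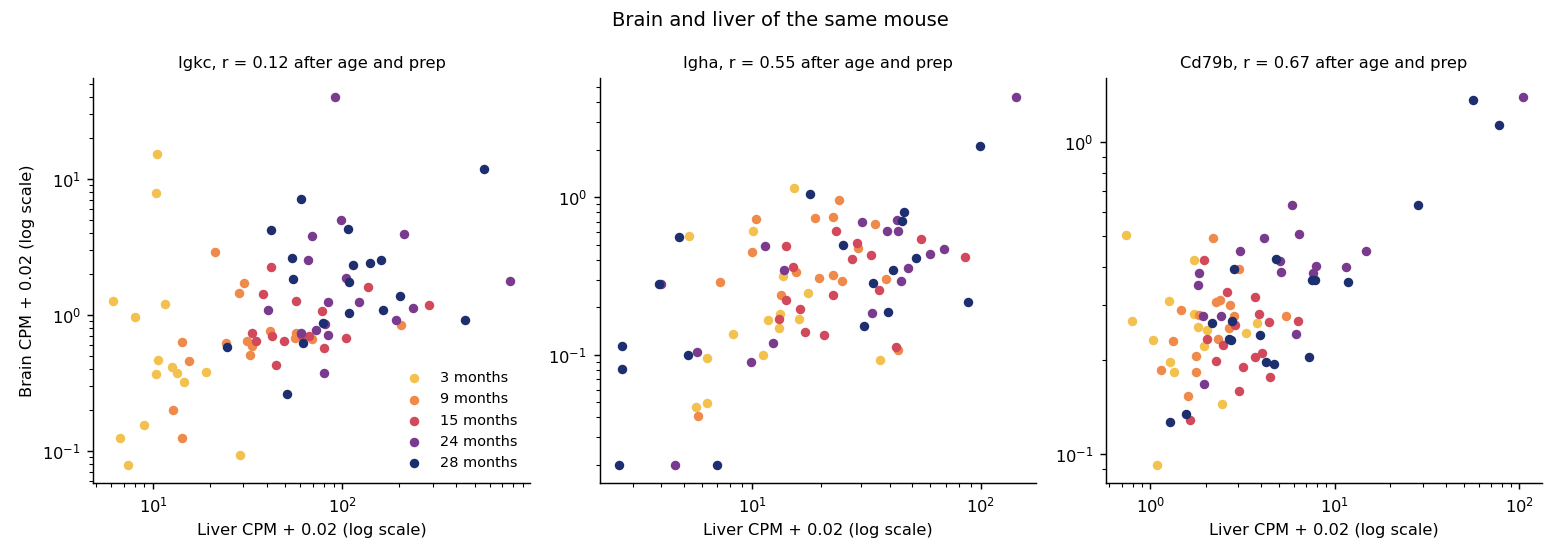
Brain level against liver level of Igkc, Igha and Cd79b in each of the 82 mice (CPM + 0.02, log axes), 1 point per mouse coloured by age. For Igha and Cd79b brain levels tend to be higher where liver levels are (r = 0.55 and 0.67 after removing age and preparation), with exceptions such as the Igha of 28 month replicate 9, and for Igkc the mice highest in the brain are spread along the liver axis (r = 0.12).

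Promoter sequences were matched for 2 members, Jchain, which passed in the liver from 9 months, and Cd79a, which passed from 24 months, and are shown so that the 2 can be set side by side. The sequences are from RefSeq on GRCm38.p6, from 250 bases before to 50 after the gene start given there. They lie at chr5:88527848-88528147 on the minus strand for Jchain and chr7:24897247-24897546 on the plus strand for Cd79a. By the gene models above Cd79a begins at chr7:24897381, inside its window and before the RefSeq start. Capitals mark the E-box letters CAGGTG, which E proteins of B cells are known to bind, on either strand:
Jchain: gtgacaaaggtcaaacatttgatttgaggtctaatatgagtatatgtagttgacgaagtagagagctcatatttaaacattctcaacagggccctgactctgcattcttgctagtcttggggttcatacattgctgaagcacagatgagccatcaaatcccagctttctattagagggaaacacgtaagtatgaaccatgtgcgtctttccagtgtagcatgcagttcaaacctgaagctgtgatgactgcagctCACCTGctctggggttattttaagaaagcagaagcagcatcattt
Cd79a: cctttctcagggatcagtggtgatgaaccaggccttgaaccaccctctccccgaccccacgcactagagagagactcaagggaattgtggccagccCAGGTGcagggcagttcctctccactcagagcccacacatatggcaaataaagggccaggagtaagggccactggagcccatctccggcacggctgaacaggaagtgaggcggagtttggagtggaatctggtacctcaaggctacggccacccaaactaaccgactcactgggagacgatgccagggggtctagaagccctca
Counted from the RefSeq start, the letters begin at position 5 after it in Jchain and at position -154 in Cd79a. They occur in 20.3% of 32544 promoters of this length. The octamer ATGCAAAT, which 1.75% of those promoters hold on either strand, was not in either window, which says only that these letters are absent there.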

How the data were processed

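RNA from 83 livers and 82 brains was sequenced as 100-base read pairs from polyA-selected, strand-marked libraries (TruSeq RNA stranded kit), per the labels' protocols. The authors deposited 1 table of raw read counts per gene for each tissue, with Ensembl identifiers. The submitters' processing notes name cutadapt 2.8, HISAT2 2.1.0, SAMtools 1.9, featureCounts, Subread 2.0.1 and the build GRCm38.p6 (mm10). The strand setting of the counting and the annotation are not given in the sources used here. Without them, reads from overlapping or antisense genes cannot be told apart. Symbols were matched for 55144 of 55471 identifiers.

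The test was edgeR's quasi-likelihood F-test (version 4.0.16, R 4.3.3) after filterByExpr and TMM scaling, with age and library preparation as terms and all libraries of a tissue together. Benjamini-Hochberg adjustment ran over all tested genes, and a call is an adjusted p under 0.05. CPM are counts per 1000000 after TMM, and log2 CPM carry a prior count of 2. Correlations within mice used 100000 permutations of mice within ages. Alternatives were DESeq2 1.42.0, limma 3.58.1 voom with quality weights, RLE scaling, no filter, other designs, each preparation alone, each library left out and, chosen after seeing the data, without the libraries that stood apart. On simulated counts the fit of 28 against 3 months recovered 98% of genes changed 2-fold in the liver. The changed genes were drawn at random from genes above a set mean level and were not the members. That share does not describe genes as low as Mzb1 or changes that rest on single livers.

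Samples are separate mice, and a liver and brain of 1 age and number come from 1 mouse by their code. Numbers do not pair mice across ages. The members and gene lists were chosen with earlier results of these data known. Named genes are the 10 members, from each other list up to 2 highest and 2 lowest changes among genes called at 28 months, and the 5 genes most like Igkc and Cd79a, of which 1 is not reported here. Other markers and single libraries were named after their values were seen.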

Additional observations from a re-analysis of the deposited data

Results flagged for a closer look

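The change from 3 to 28 months differed between liver and brain, by the test of that difference in the edgeR fit of both tissues, for 7 members, and each is listed for that reason. On the log2 scale the liver change exceeded the brain change by 3.24 for Igkc, 3.0 for Ighm, 4.27 for Ighg2c, 3.8 for Ighg2b, 2.3 for Jchain, 2.62 for Cd79a and 2.17 for Cd79b. Over all 14035 genes tested in both tissues 49.2% differed in this way. In this fit the largest differences were those of the gamma genes. Their brain medians at 3 months were 0.349 CPM (Ighg2c) and 0.0249 CPM (Ighg2b), where 1 brain held 6.56 and 6.58 CPM. Without that brain, 3 month replicate 13, the Ighg2b difference was 2.36, below Ighm at 3.03 and Igkc at 2.76. With the mouse as a block Ighg2b was at 2.36, below Ighm at 2.59. Ighg2c stayed the largest in both settings, at 3.22 and 2.99. Groups here hold more than 10 samples, so no single sample was tested as an outlier.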

How the results depend on the processing

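In the liver the 10 members called at 24 and 28 months were 10 under RLE scaling, without the filter, without the preparation term, in DESeq2 and with any single liver left out. The 24 month count was 5 in preparation 1 alone, and the 28 month count was 5 in preparation 2 alone and 9 in voom. The 5 called at 9 months became 1, 0 and 0 in preparations 1, 2 and 3 alone, where fewer livers were tested. The 5 called at 15 months became 1 in preparation 2, 0 in preparation 3 and 9 with only the 2 ages fitted. The 5 called from 15 to 24 months became 0 in preparations 1 and 3, 0 under voom and 0 without the 2 libraries least like the rest, and ranged from 0 to 6 with single livers left out. The 0 called from 24 to 28 months became 4 in preparation 1 and 1 without the 2 libraries least like the rest, with a range of 0 to 1.

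In the brain the counts were small and unstable. The 1 member called at 15 months was 0 without the filter, in each preparation alone, with only the 2 ages fitted and under voom, with a range of 0 to 1 over single brains left out. The 2 called at 24 months became 0 in each preparation, 1 with only the 2 ages and 4 under voom, with a range of 1 to 4. The 1 called at 28 months became 2, 0 and 0 in preparations 1, 2 and 3, 0 with only the 2 ages and 3 under voom, with a range of 0 to 3. The 0 called from 15 to 24 months became 1 without the preparation term, 1 without the 2 libraries least like the rest, 1 with only the 2 ages, 1 under voom and 2 in DESeq2, with a range of 0 to 2. The 5 called over all ages ranged from 2 to 5. The causes were not tested.

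Brain log2 fold changes at 28 months changed sign as follows. Igkc was -0.08 in preparation 1 and ranged from -0.01 to 1.45 over single brains left out, and Igha was -0.4 in preparation 1. Ighg2c was 1.29 in preparation 1, 0.67 in preparation 3, 0.2 with only the 2 ages and 0.63 under voom, with a range of -0.17 to 0.95. Ighg2b was 3.13 in preparation 1 and 1.62 under voom, with a range of -0.52 to 1.46. Jchain was 0.16 in preparation 2 and 0.06 under voom, with a range of -0.09 to 0.14, and Cd79a was -0.64 in preparation 3. The correlation of Igkc between liver and brain was 0.33 in preparation 1 and -0.02 in preparation 2.

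Replicate numbers do not pair mice across ages: libraries of 1 number had a median correlation of 0.009 in the liver and 0.01 in the brain, and 3 of 83 livers and 9 of 82 brains were most like one of their own number. With a replicate block the brain counts at 15 and 28 months both became 0, and the brain changes at 28 months became 0.44 for Ighg2c and 0.85 for Ighg2b. With the mouse as the block across tissues the number of members that differed between tissues was 7.

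Low counts limit the brain values most. Mzb1 and Ms4a1 were not tested there, and 9 of 15 brains of 3 months held at most 3 counts of Ighg2b. In the liver 1 animal of 24 months decided the step from 15 to 24 months. With 15 to 18 mice a group, changes that missed the threshold are not shown to be absent.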
